A study of Oryctolagus cuniculus with 10 samples.

Results

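Rabbit stem cells expanded on the matrix of human adipose stem cells or dermal fibroblasts were set against the same kind of cells expanded on tissue culture plastic or on the matrix of human synovium-derived stem cells. The comparison holds 2 libraries a side, and a library from the matrix of human urine stem cells was read out beside them, so that 5 of the 10 libraries of the series enter it. The pairs were chosen from the expression values of these same libraries. All differences between the pairs in cells are therefore given as a description, with no test. The same substrates after pellet culture were not used in that choice, and the tests were made there.

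The cells were infrapatellar fat pad derived stem cells (IPFSCs) of New Zealand White rabbits, mesenchymal cells from the fat cushion below the kneecap. The 4 matrices were decellularized extracellular matrix (dECM), the protein network that remains once the cells that laid it down are removed, and came from adipose stem cells (ASC), dermal fibroblasts (DF), synovium-derived stem cells (SDSC) and urine stem cells (USC). The fifth substrate was plastic. Expanded cells were sequenced from each substrate, and so were pellets made from each and kept for 21 days in chondrogenic induction medium, with 1 mRNA library per substrate and stage. The sources used here do not say how many animals gave cells, whether animals or matrix donors were pooled, or whether the cultures were run together, so a difference between substrates cannot be told apart from a difference between single cultures. A matrix of human origin under rabbit cells is a cross-species substrate in every dECM library.

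A dECM presents collagens, fibronectin, proteoglycans and bound growth factors to the cells seeded on it. Cells attach to these through integrins, and attachment, stiffness and bound factors are known to shape how mesenchymal cells spread, divide and choose a lineage. Plastic offers a flat, stiff surface coated with proteins from the medium. Chondrogenic pellet culture removes the cells from either surface and packs them into a ball, where they lay down a cartilage-like matrix of their own.

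Reads in genes, recovered from the deposited values, numbered from 14021150 (ASC dECM cells) to 19827859 (SDSC dECM cells). Values are RPKM, which are reads relative to gene length and to the library's reads in genes. Differences are on the log2(RPKM + 1) scale, on which the change of a low gene looks smaller than it is. The 12244 genes that averaged 1 RPKM or more across all 10 libraries were kept. Genes are listed by Ensembl identifier and the files do not pair the identifiers with names. None (0) of them matched the available name table, so the labelled cell type could not be checked against its markers and genes are described as groups, with 2 identifiers in each direction. The plastic library among the cells and the SDSC dECM library among the pellets stood farthest from the others of their stage. Counts that rest on them, other than limma calls, are given with and without them.

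In the expanded cells, 254 genes were higher on both ASC and DF dECM than on both plastic and SDSC dECM, and 139 were lower, by at least 1 on the log2 scale. This gap runs from the lower library of the higher pair to the higher library of the lower pair, and genes that meet it are called set apart here. The 254 genes are 2.07% of those tested, the 139 are 1.14% and both together are 3.21%, figures that describe the choice of the pairs. With no minimum gap the pairs failed to overlap in 3281 genes higher and 3850 lower. A gap of at least 2 was found in 49 and 21 genes, and one of at least 3 in 15 and 4. Gaps above 4 were seen in 6 genes, all higher on ASC and DF dECM. The genes nearest the threshold had gaps of 1.001 inside and 0.996 outside for the higher set, and 1.005 inside and 0.995 outside for the lower set. Leaving out a library can only keep or raise these counts, because the gap is then easier to meet. The SDSC dECM library limited them most. Without it, with plastic alone on the other side, 470 genes were higher and 389 were lower. The lower set held 210 genes without the DF library, and the counts without plastic were 314 and 196.

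**Figure D1:**
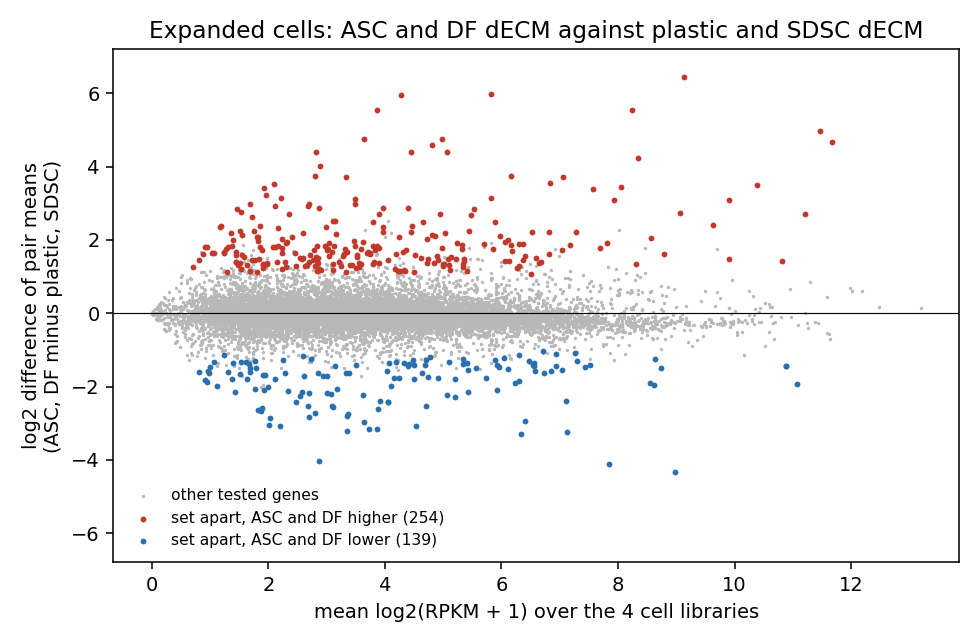
Difference between the pair means (log2 scale, vertical) against the mean level over the 4 cell libraries (horizontal, log2(RPKM + 1)) for each of the 12244 tested genes; red and blue points are the 254 and 139 genes set apart. The red points reach a difference of 6.45 (ENSOCUG00000027368) and the blue points one of -4.33 (ENSOCUG00000008193).

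The 2 pairs were not equally tight. ASC and DF dECM cells differed by at least 1 in 6 of the 254 higher genes and in 0 of the 139 lower ones. Plastic and SDSC dECM cells differed that much in 33 and 18. Over all tested genes these numbers were 85 for ASC against DF and 464 for plastic against SDSC. The root-mean-square log2 difference over all tested genes was 0.256 within the ASC and DF pair and 0.437 within the plastic and SDSC pair. Across the pairs it was 0.694 (ASC to plastic), 0.655 (DF to plastic), 0.528 (ASC to SDSC) and 0.506 (DF to SDSC). SDSC dECM cells thus lay 0.437 from plastic and 0.420 from USC dECM cells, nearly the same distance. The difference ASC minus plastic correlated across genes with the difference DF minus SDSC, which shares no library with it, at r = 0.649 over 12244 genes, and ASC minus SDSC with DF minus plastic at r = 0.697. Genes are not independent replicates and the pairs were chosen for being alike, so these values only describe the libraries.

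The genes higher on ASC and DF dECM had a median of 22.7 RPKM on ASC dECM and 21.5 RPKM on DF dECM. They stood at 12.98 RPKM on USC dECM, 5.96 RPKM on SDSC dECM and 4.09 RPKM on plastic. The median difference between the pair means was 1.74 on the log2 scale, with quartiles of 1.41 and 2.25. This set took up 9.61% of all reads in genes on ASC dECM and 8.31% on DF dECM, against 6.28% on USC, 2.13% on SDSC and 1.20% on plastic. A few very abundant genes carried much of that share: the 5 most read held 4.85% of the reads on ASC dECM and 0.43% on plastic. On each of ASC and DF dECM 12 of the 254 genes reached 1000 RPKM, on SDSC dECM 3 did and on plastic 0.

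The genes lower on ASC and DF dECM had a median of 36.4 RPKM on plastic and 30.0 RPKM on SDSC dECM. On USC dECM the median was 9.06 RPKM, on DF dECM 7.84 RPKM and on ASC dECM 5.61 RPKM. The difference between the pair means had a median of -1.69 and quartiles of -2.21 and -1.42. They took up 7.31% of the reads on plastic and 6.72% on SDSC dECM, against 2.71% on USC, 2.01% on DF and 1.86% on ASC dECM. Here too a few genes carried much of the share, with 4.19% of all reads on plastic and 1.09% on ASC dECM in the 5 most read.

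Both sets held genes that were near silent on one side. Of the 254 higher genes, 42 were under 1 RPKM on both plastic and SDSC dECM, where their median was 0.359 RPKM, and they had a median of 4.15 RPKM on ASC and DF dECM. Of these 42 genes, 16 were also under 1 RPKM on USC dECM. At the other end, 54 genes were at 100 RPKM or more on both ASC and DF dECM (median 245 RPKM) and still at a median of 59.0 RPKM on plastic and SDSC dECM. Of the 139 lower genes, 28 were under 1 RPKM on both ASC and DF dECM (median 0.492 RPKM, against 4.08 RPKM on plastic and SDSC dECM), and 17 of them were under 1 RPKM on USC dECM as well. A further 32 were at 100 RPKM or more on both plastic and SDSC dECM, with a median of 232 RPKM there and 69.5 RPKM on ASC and DF dECM. As a description of depth, the exact Poisson 95% intervals of the 4 libraries left the pairs apart in 243 of the 254 and 133 of the 139, genes that had been chosen for a gap in these same values, and in 2664 of all 12244 tested genes. In 49 and 29 genes a library of the lower pair had fewer than 20 reads, and in 11 and 4 it had 0 reads. Such intervals cover counting error only, not differences between cultures.

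Gene length, which the choice of the pairs did not use, was close to that of all tested genes in the higher set. Its median was 1800.5 bases, with quartiles of 941 and 3093, against 1802.5 bases and quartiles of 969 and 3016 over all tested genes. The lower set was somewhat longer, with a median of 2078 bases and quartiles of 1275 and 3535. Its genes were also more abundant, with a median over the 10 libraries of 23.4 RPKM against 14.3 RPKM in the higher set and 13.4 RPKM over all tested genes.

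The widest gap in the cells belonged to ENSOCUG00000027368, a gene of 249 bases. It stood at 7095 RPKM on ASC dECM, 3838 RPKM on DF dECM and 2565 RPKM on USC dECM, against 96.6 RPKM on SDSC dECM and 35.8 RPKM on plastic. The gap between the pairs was 5.30 on the log2 scale, and the pair means differed 82.6-fold. USC dECM was on the side of ASC and DF, far above SDSC dECM. After pellet culture the gene was close to absent on 4 substrates: it had 0 reads in the ASC dECM and plastic pellets, 1 read in the USC and 9 reads in the DF dECM pellets, and 89 reads or 18.6 RPKM in the SDSC dECM pellet. A library with 0 reads allows up to 0.803 RPKM (ASC) or 0.685 RPKM (plastic), the value of 3 reads, for counting error only. In pellets the difference between the pairs was -1.39 (SE 1.32, limma, adjusted p = 1), and the pairs overlapped. The value rested on the SDSC dECM pellet, without which it turned to 0.76. It was -3.54 without the plastic pellet, -2.15 without the DF pellet and -0.63 without the ASC pellet. Such fits leave 1 library on a side, which is assumed to vary like the others, so only the size of the difference is given.

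ENSOCUG00000024425, 599 bases long, had the next widest gap. It stood at 517 RPKM on ASC dECM, 386 RPKM on DF dECM and 128 RPKM on USC dECM, against 8.93 RPKM on SDSC dECM and 4.04 RPKM on plastic, a gap of 5.29 and a ratio of the pair means of 69.7. In the pellets the pairs again lay apart, with 248 RPKM after ASC dECM, 583 RPKM after DF dECM and 325 RPKM after USC dECM, against 70.3 RPKM after SDSC dECM and 35.8 RPKM after plastic. The order within the higher group changed, with ASC dECM first in cells and below DF and USC dECM in pellets. The difference between the pellet pairs was 2.90 on the log2 scale (SE 0.48, limma, unadjusted p = 0.00083), higher in both libraries of the ASC and DF pair, and did not pass the adjustment over all genes (limma, adjusted p = 1). Leaving out 1 pellet kept the direction in each case. The difference was 3.51 without the ASC pellet, 2.28 without the DF pellet, 2.42 without the plastic pellet and 3.38 without the SDSC dECM pellet. Only its size is given, since 1 library is left on a side.

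Among the genes lower on ASC and DF dECM, ENSOCUG00000008193 (1696 bases) had the widest gap, -3.86. It was at 2850 RPKM on plastic and 1786 RPKM on SDSC dECM, and at 143 RPKM on USC dECM, 122 RPKM on DF dECM and 102 RPKM on ASC dECM, a 20.7-fold ratio of the pair means. In the pellets the 5 libraries ran from 675 RPKM after DF dECM to 985 RPKM after SDSC dECM, with 897 RPKM after plastic, 881 RPKM after USC dECM and 971 RPKM after ASC dECM. The gene was chosen for its gap in cells, so a smaller range in pellets is no support for a narrowing. The pairs overlapped there (difference -0.22, SE 0.28, limma, adjusted p = 1, and 0.05 without the DF pellet).

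ENSOCUG00000013367 (6198 bases) followed, with a gap of -3.53 and an 18.1-fold ratio. Its levels in cells were 1277 RPKM on plastic, 720.0 RPKM on SDSC dECM, 77.9 RPKM on USC dECM, 61.3 RPKM on DF dECM and 48.8 RPKM on ASC dECM. In pellets it ranged from 519 RPKM after DF dECM through 625 RPKM after plastic, 754 RPKM after USC dECM and 1038 RPKM after ASC dECM to 1411 RPKM after SDSC dECM. Each pair thus held a high and a low pellet (difference -0.36, SE 0.50, limma, adjusted p = 1), and the difference turned to 0.23 without the SDSC dECM pellet and to 0.14 without the DF pellet. In both of these genes the USC dECM cells lay near the ASC and DF pair, while the USC dECM pellet lay within the range of the other pellets.

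**Figure D2:**
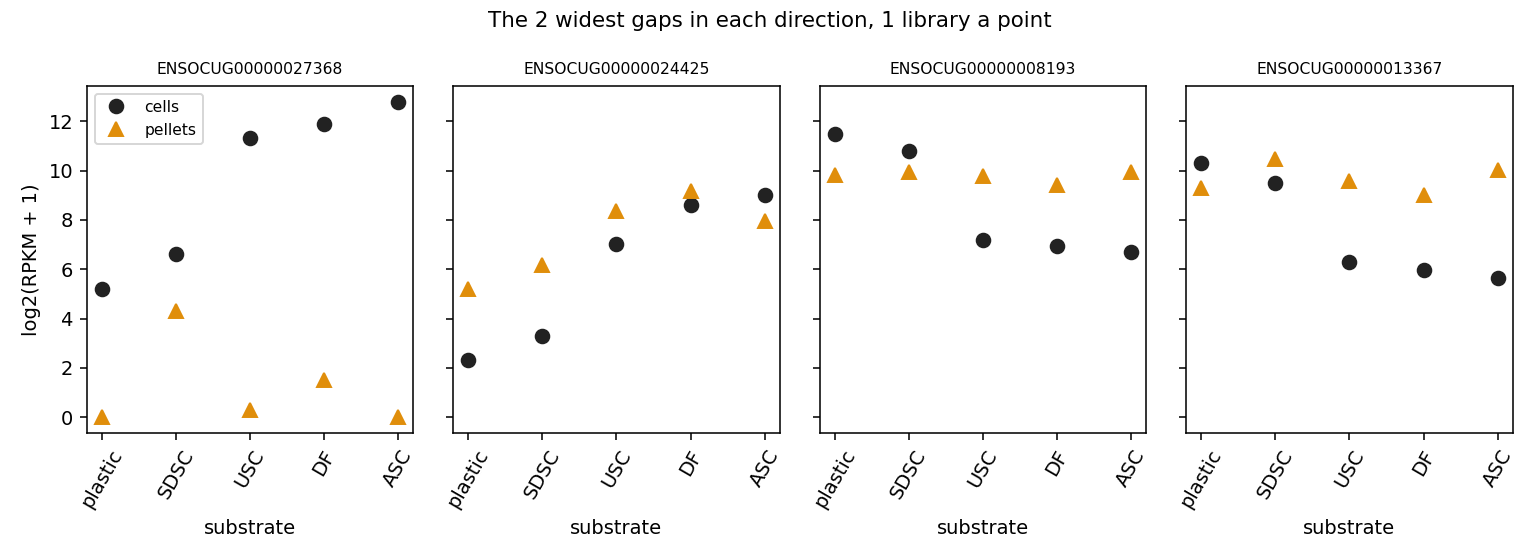
log2(RPKM + 1) of the 4 genes with the widest gaps, by substrate, with 1 library a point (circles, cells; triangles, pellets). The first gene is near 0 in 4 of 5 pellets, the next keeps the pairs apart (583 RPKM after DF dECM against 35.8 RPKM after plastic), and the other two converge in pellets.

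Cells on USC dECM lay between the pairs in most genes set apart, and closer to ASC and DF dECM. Their position was measured on a scale from 0 at the mean of plastic and SDSC dECM to 1 at the mean of ASC and DF dECM. Its median was 0.63 over the 254 higher genes, with quartiles of 0.43 and 0.79, and 0.79 over the 139 lower genes, with quartiles of 0.62 and 0.93. USC dECM cells were nearer to the ASC and DF pair in 173 of the 254 (68.1%) and in 126 of the 139 (90.6%), against 48.2% of all tested genes. The last share is a weak baseline. Over all tested genes the pair means differed little, with quartiles of -0.24 and 0.18, so the position is poorly defined there. They lay strictly between the pairs in 205 and 111 genes, within the range of ASC and DF in 19 and 15, and past both in 20 and 11. Over all 12244 tested genes they lay strictly between the pairs in 2209, a place open only where the pairs do not overlap. At the other end, they were within the range of plastic and SDSC dECM in 7 genes and 1 gene, and past both in 3 genes and 1 gene. The rule that chose the pairs already named this library as intermediate, and these values show how far along it lay.

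In size, USC dECM cells were higher than plastic by a median of 1.20 on the log2 scale in the higher set, and stayed below ASC dECM by a median of 0.71. They were at least 1 above both plastic and SDSC dECM in 110 of the 254 genes, and at least 1 short of both ASC and DF in 57. In the lower set they were at least 1 below both plastic and SDSC dECM in 88 of the 139 genes, and at least 1 short of the ASC and DF level in 6. The order plastic, SDSC, USC, then ASC and DF was met in 153 of the 254 genes and, turned round, in 81 of the 139. Neither this order nor the steps of at least 1 were counted over all tested genes. SDSC dECM cells lay from plastic toward the ASC and DF mean in 75.6% of the higher and 74.1% of the lower genes. Over all tested genes that share was 73.4%, nearly the same, so this part of the order is not particular to the sets. The more distant library of the ASC and DF pair was ASC in 64.6% of the higher and 70.5% of the lower genes, against 56.0% of all.

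**Figure D3:**
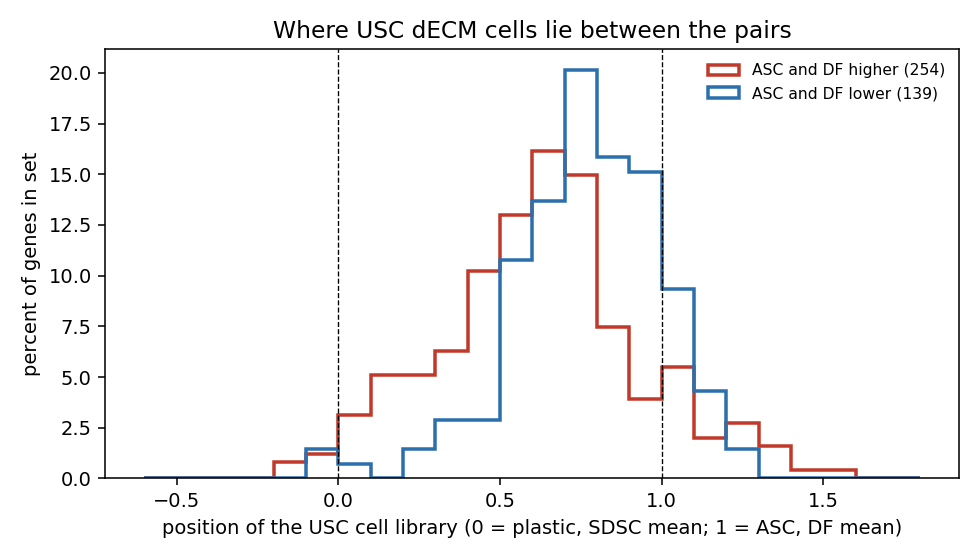
Percent of the genes in each set (vertical) by the position of the USC dECM cell library between the pairs (horizontal; 0 is the mean of plastic and SDSC dECM, 1 the mean of ASC and DF dECM). The medians are 0.63 for the higher set (red) and 0.79 for the lower set (blue).

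The USC libraries stand on neither side of the pairs, and the change from USC dECM cells to USC dECM pellets was read out for both sets, with 1 library a stage and no test. The read-out is not free of the choice, as the rule named the USC cell library as intermediate. In these genes that library lay toward ASC and DF dECM, at median positions of 0.63 and 0.79. The direction of the medians below is therefore no support for a change with pellet culture. Genes higher on ASC and DF dECM tended to be lower in the USC pellet than in the USC cells, with a median difference of -0.49 on the log2 scale and quartiles of -1.53 and 0.80. They were lower by at least 1 in 93 of the 254 genes (36.6%), against 8.71% of all tested genes, and higher by at least 1 in 53 (20.9%), against 10%. The lower set went the other way, with a median of 0.41 and quartiles of -0.69 and 1.58. It was higher by at least 1 in 45 of the 139 genes (32.4%) and lower in 29 (20.9%). All tested genes had a median of 0.14. In both sets the shares in either direction were above those of all tested genes. The genes were chosen for wide differences among cell libraries, so this excess too is no support for a change with pellet culture.

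The level of a gene bore on this change, in the sets as in all tested genes. Of the 54 higher genes at 100 RPKM or more on ASC and DF dECM, 30 were lower by at least 1 in the USC pellet and 5 were higher, with a median of -1.09. All 849 tested genes at that level on ASC and DF dECM had a median of -0.50, with 32.7% lower and 3.42% higher. Of the 42 higher genes under 1 RPKM on plastic and SDSC dECM, 23 were higher in the USC pellet and 7 were lower, with a median of 1.18. The 413 tested genes that low on plastic and SDSC dECM had almost the same median, 1.19, with 54.7% higher and 2.42% lower. Genes that low in cells entered the test through their mean over all 10 libraries, pellets included, so the filter itself favours a higher value in the pellet. In the lower set, the 28 genes under 1 RPKM on ASC and DF dECM had a median of 0.91 with 14 higher and 2 lower, against a median of 1.25 over the 403 tested genes of that level. The 32 lower genes at 100 RPKM or more on plastic and SDSC dECM had a median of -0.05 with 8 in each direction, while the 869 tested genes of that level had a median of -0.41, with 4.14% higher and 29.2% lower.

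In the libraries that defined the pairs, the change between stages ran from the chosen extremes. In the higher set its median was -1.36 after ASC dECM and -1.11 after DF dECM, and 0.63 after plastic and 0.20 after SDSC dECM. In the lower set the medians were 0.88 and 0.59 after ASC and DF dECM, and -1.08 and -0.45 after plastic and SDSC dECM. The genes were chosen on the cell values of these very libraries, so these medians are no support for a change. Only the spread among the 5 pellets was not part of that choice. From the lowest to the highest of the 5 libraries, the higher set spanned a median of 2.08 on the log2 scale in cells and 0.90 in pellets, and the lower set 2.06 and 0.88. The genes were chosen for a gap in cells, so their cell spans are wide by that choice. Their smaller pellet spans are therefore no support for a narrowing. Over all tested genes the spans were 0.49 and 0.47, so the genes set apart in cells varied more among pellets than the tested genes did.

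**Figure D4:**
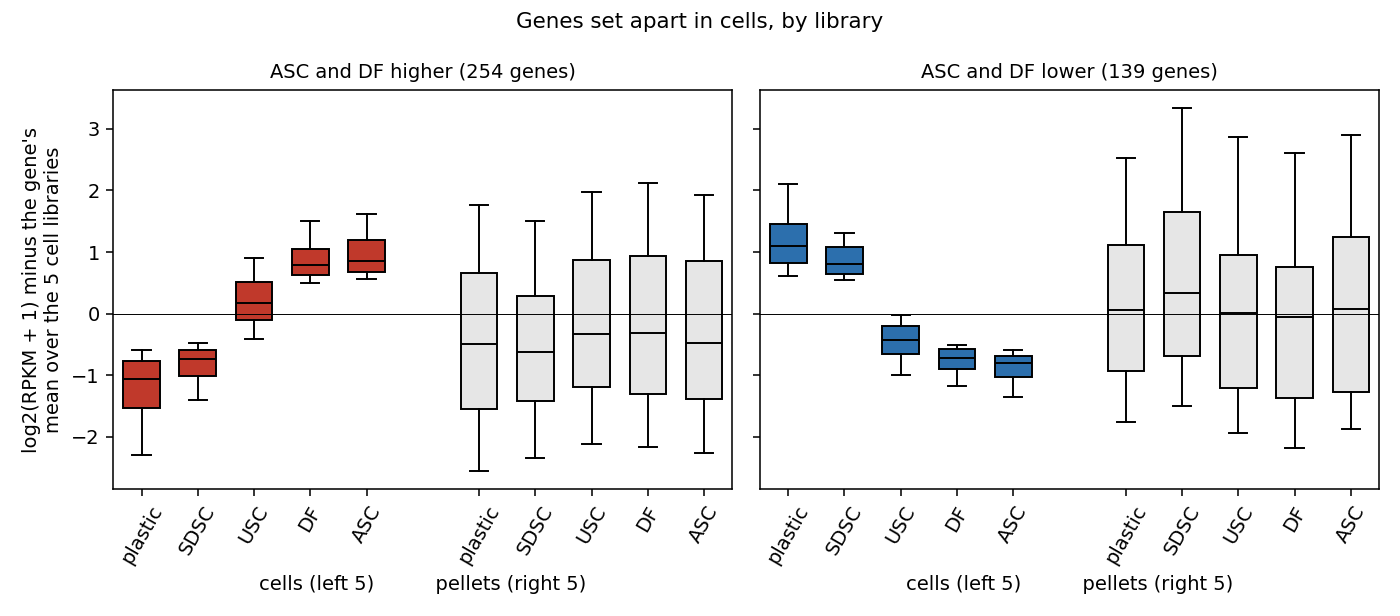
log2(RPKM + 1) of each gene minus its own mean over the 5 cell libraries, by library, for the 254 higher and the 139 lower genes; boxes are quartiles with the median, whiskers the 10th and 90th percentiles. The cell libraries (coloured) step from plastic to ASC dECM, while the pellet libraries (grey) have medians between -0.63 and 0.34 and overlap.

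The pellets were spread around the level of the cells. In the higher set the median of the 5 pellets lay within the range of the 4 cell libraries in 131 genes (51.6%), below all 4 in 70 (27.6%) and above all 4 in 53 (20.9%). In the lower set the numbers were 64 within (46.0%), 44 below (31.7%) and 31 above (22.3%). Over all tested genes the shares were 28.3%, 24.1% and 47.7%, where the 4 cell libraries span a narrower range. All 5 pellets were below all 4 cell libraries in 48 of the 254 genes (18.9%) and in 28 of the 139 (20.1%), against 14.6% of all, and above them in 28 of the 254 and 22 of the 139, against 30.1% of all. All 5 pellets were under 1 RPKM in 24 of the 254 (9.45%) and in 6 of the 139 (4.32%), against 1.5% of all. Such genes passed the filter only through their cell values. A gene set apart has at least 1 RPKM in both libraries of its higher cell pair. These shares therefore follow in part from the filter and the choice of genes, and are no support for a loss in pellets.

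The same pairs were tested in the pellets, to ask whether the difference between the substrates outlasted 21 days of chondrogenic culture. No gene was called by limma among the 12244 tested (0%), with a smallest adjusted p of 1. Before adjustment, p was under 0.05 for 174 genes higher after ASC and DF dECM (1.42%) and 156 lower (1.27%), and limma-voom on reads recovered from the RPKM also called 0. Of the 254 genes higher in cells, 21 (8.27%) were higher in pellets at that unadjusted level and 4 were lower. Of the 139 lower in cells, 24 (17.3%) were lower and 3 higher. With 2 libraries a side and 2 residual degrees of freedom, the lack of calls does not show that the pellets were alike. Each fit that left out a pellet library did call at least 1 gene. These fits set 2 libraries against 1, which is assumed to vary like the others, with 1 residual degree of freedom. Their calls therefore rest largely on the variance prior and are not read as results.

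Fold changes in the pellets were small and leaned the way they had in cells. The difference between the pair means had a median of 0.19 over the 254 higher genes, with quartiles of -0.05 and 0.48, and was above 0 in 175 of them (68.9%), against 50.3% of all tested genes. Without the SDSC dECM pellet the median over the 254 was 0.08, against -0.07 over all tested genes. Without the DF pellet it was 0.12, against -0.04. It was 0.215 without plastic, against 0.067, and 0.186 without the ASC pellet, against 0.049. In the full comparison, the difference over the 139 lower genes had a median of -0.36, with quartiles of -0.58 and -0.09. It was below 0 in 116 of them, against 6080 of all 12244 tested genes. All tested genes had a median of 0.002 there. The pellet pairs did not overlap, with ASC and DF higher, in 48 of the 254 genes (18.9%), against 12.5% of all tested genes, and with ASC and DF lower in 26 (10.2%), against 14.7%. In the lower set they lay apart in the direction of the cells in 60 of the 139 genes (43.2%) and the other way in 6 (4.32%). Pellet pairs were at least 1 apart, with ASC and DF higher, in 3 of the 254 genes and 0 of the 139, out of 11 among all tested genes, and with ASC and DF lower in 1 of each set, out of 5.

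Which pellet library carried this lean differed between the sets. The SDSC dECM pellet was the highest of the 5 in 86 of the 139 lower genes, at a median of 0.44 above the median pellet, and the DF dECM pellet was the lowest in 66. Such ranks were not counted over all tested genes, so they only describe the sets. Without the SDSC dECM pellet, 67 of the 139 (48.2%) were lower after both ASC and DF dECM than after plastic, against 48.5% of all tested genes, and the median difference was -0.14, against -0.07 over all. The lean of the lower set therefore rested on the SDSC dECM pellet, and against plastic alone the share was that of all genes. Without the plastic pellet, 111 of the 139 (79.9%) were lower than after SDSC dECM, against 30.8% of all. In the higher set the lean was clearest against plastic: without the SDSC dECM pellet 108 of the 254 genes (42.5%) were higher than after plastic, against 27% of all. Without plastic, 133 (52.4%) were higher than after SDSC dECM, nearer to the 47.1% of all. The SDSC dECM pellet was also the lowest of the 5 in 111 of the 254, and plastic in 76, again with no count over all tested genes. Without the ASC pellet the counts in the direction of the cells were 102 of 254 and 90 of 139, where all tested genes gave 28.7% and 20.6%. Without the DF pellet they were 84 and 66, where all gave 19% and 32.1%.

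**Figure D5:**
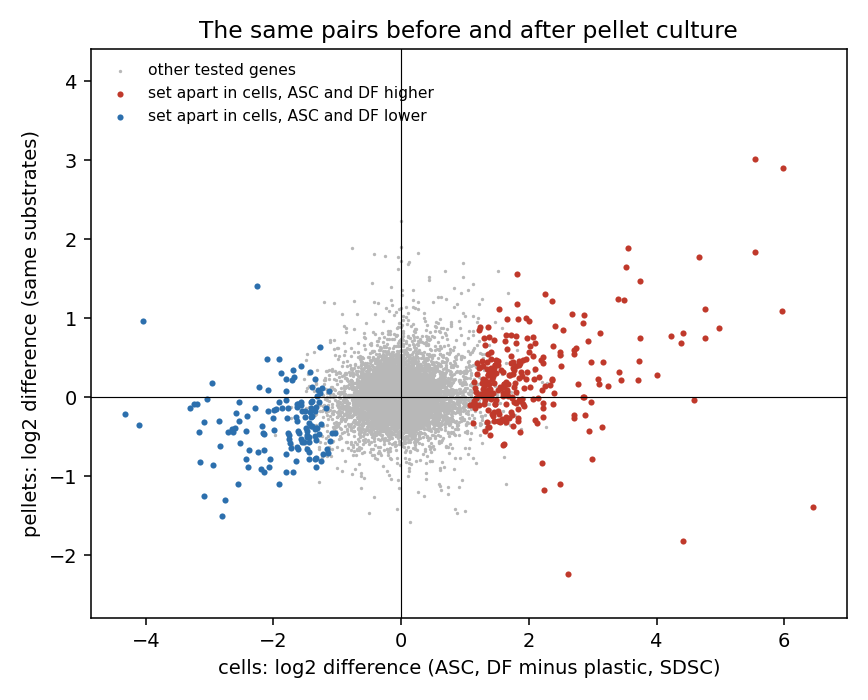
Difference of the pair means in pellets (vertical) against that in cells (horizontal), both on the log2 scale, for the 12244 tested genes; red and blue points are the genes set apart in cells. Their pellet medians are 0.19 and -0.36, small beside the 1.74 and -1.69 in cells, where the genes were chosen.

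The pairing of the substrates was not repeated as a whole in the pellets. ASC minus plastic and DF minus SDSC, which had gone together in cells, correlated at r = -0.158 across 12244 genes in pellets, and ASC minus SDSC with DF minus plastic at r = -0.026. Each pair of differences shares no library. The largest distance among the pellets was the one between plastic and SDSC dECM, at a root-mean-square log2 difference of 0.536, while ASC and DF dECM pellets differed by 0.321. The latter was less than each distance across the pairs: 0.396 (ASC to plastic), 0.372 (DF to plastic), 0.421 (ASC to SDSC) and 0.474 (DF to SDSC). ASC dECM pellets lay nearest to USC dECM pellets, at 0.306, and DF dECM pellets at 0.309 from the same library. In genes, plastic and SDSC dECM pellets differed by at least 1 in 688, against 464 in cells, and ASC and DF dECM pellets in 198, against 85 in cells. The cell stage thus held the ASC and DF libraries closest together, and the pellet stage held plastic and SDSC dECM farthest apart.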

How the data were processed

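The series holds 10 mRNA libraries of rabbit cells. Per the labels' protocols, Trizol and RNeasy were used for the RNA and KAPA mRNA HyperPrep for the libraries. The submitters' processing notes name Subread, featureCounts and build OryCun2.0. Neither tool versions nor an annotation release or strand setting is given in the sources used here. In the deposited table, values are log2(RPKM + 1) with 0.0001 added by the authors, as the values themselves show: once this is undone, whole reads came back for all 21536 genes above 0 in any library, and 12114 of the 12123 genes with at least 50 reads in a library gave a whole length in bases (tolerance 0.02). The reads of 329 genes were multiplied by a small common factor to make the length whole, and others with few reads may still be understated. The recovered reads summed to at least 0.999887 of the library total that the RPKM imply. Samples were grouped by title.

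The pairs, lists and rules were chosen with earlier results of these data known. In cells nothing was tested. In pellets, limma 3.58.1 in R 4.3.3 compared the pairs over the 5 pellet libraries, USC as its own class, with a variance prior that follows level, as a two-sided test adjusted by Benjamini-Hochberg and called under 0.05; p-values measure the spread between substrates, not cultures. Python 3.11.15, numpy 2.4.6, pandas 2.3.3, scipy 1.17.1 and matplotlib 3.10.9 did the rest. The limma step and the recovery were run on simulated data. In the limma simulation the libraries of a pair did not differ by substrate, so it does not measure error or power for these pellets. The 4 named genes have the widest gaps among 8880 with a mean of at least 5 RPKM in cells. The name table (mOryCun1.1, 38822 genes) matched 0 identifiers, so the 23 gene lists were not used. Alternatives were another pseudocount, filter, scaling and rule, each library left out, and, for the pellets, other fits.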

Additional observations from a re-analysis of the deposited data

How the results depend on the processing

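No paired analysis was possible because the labels carry no replicate numbers and each substrate has 1 library a stage. In cells, a difference of the pair means of at least 1 in place of a gap between all libraries gave 444 higher and 279 lower genes, against 254 and 139, and a pseudocount of 0.1 RPKM gave 215 lower genes. Leaving out 1 cell library gave from 310 to 470 higher and from 164 to 389 lower genes. These counts include all genes of the main sets, because fewer libraries or a mean are easier to meet. Median-of-ratios scaling kept 251 of the 254 and 136 of the 139. In pellets, leaving out 1 library gave from 1 to 121 genes called higher and from 0 to 55 called lower; the cause was not tested. The pellet difference of 3 named genes changed sign and ran from -3.54 to 0.76 in ENSOCUG00000027368, from -0.48 to 0.047 in ENSOCUG00000008193 and from -0.94 to 0.23 in ENSOCUG00000013367. The other alternatives for the pellet test (pseudocount, 2 filters, scaling, all 10 libraries, variance prior, limma-voom) called 0. The change from USC cells to the USC pellet kept its direction with the other pseudocount (medians -0.60 and 0.45) and with median-of-ratios scaling (-0.64 and 0.26), which lowered the USC pellet by 0.079 and raised the USC cells by 0.068. With 1 library per substrate and stage, depth limits low genes and culture differences cannot be measured.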
